A study of Bos taurus with 18 samples.

Results

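The cholesterol synthesis genes HMGCS1, IDI1, FDFT1, SQLE, CYP51A1 and DHCR7, their regulator INSIG1, and the fatty acid activating gene ACSL3 were examined in clonal mesenchymal stem cell (MSC) populations from cattle. These 8 genes are 8 of the 16989 gene rows of the count files, and all 8 were found in all 18 libraries. They were selected on RNA levels in these same libraries, from earlier results, and no record says which comparison drew attention to them. Their levels, their differences between libraries and their covariation are therefore given as a description, with no p-value. The 7 genes other than ACSL3 are called the sterol genes here. The samples were 17 clones, each grown out from a single bone marrow MSC, and 1 heterogeneous (mixed) population of such cells (Het), all from the same juvenile donor. The cells were kept on tissue culture plastic in DMEM with serum and antibiotics, without a differentiation medium, and the clones were taken in monolayer at passage 1. Each population was sequenced once, so the only spread available is that between clones, and no conclusion reaches beyond this donor.

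As background, animal cells build cholesterol from acetyl-CoA through mevalonate, isoprenoid diphosphates, squalene and lanosterol. The genes of this route share a control by the SREBP transcription factors, which are held in the endoplasmic reticulum with their escort SCAP when sterols are plentiful. INSIG proteins do the holding, and INSIG1 is itself an SREBP target, so its transcript falls when sterols are abundant and rises when they are scarce. Long-chain acyl-CoA synthetases such as ACSL3 attach coenzyme A to fatty acids, the step before these enter phospholipids, triglycerides or cholesteryl esters, and ACSL3 sits on the endoplasmic reticulum and on lipid droplets.

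The clone libraries held 11484812 to 18458157 reads on genes (median 14193790) and the Het library 16092501. Levels are given as CPM, the reads of a gene scaled to a common library size, on library sizes scaled by TMM, a method that keeps a few abundant genes from shifting all others. The scaling factors lay between 0.888 and 1.162. Plain library totals in place of TMM moved the median log2 difference of all genes in a clone by -0.18 to 0.22, and by more than 0.1 in 7 of 17 clones, so differences of that size between clones depend on the scaling. In edgeR's quasi-likelihood test of each clone against the other 16, clone N had 76 genes higher and 10 lower at an adjusted p under 0.05, clone M had 4 higher, and the remaining clones had 0 each, with 52 to 1007 genes at an unadjusted p under 0.05. Clones C and O resembled each other most, with a mean chi-square per gene of 5.08 between their counts (sampling noise alone gives 1) against 23.13 for the next pair, E and F, and a median of 128.52 over all pairs. C and O differed by more than sampling noise, as 2 preparations of the same clone could too, and were counted as 2 clones because the labels name them so. Whether they grew from different cells was not tested. Of 8 MSC and stromal markers, including THY1, NT5E, ENG and CD44, all were detected in every library, with a lowest level of 136.69 CPM for ENG in any clone.

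HMGCS1, which makes HMG-CoA at the entry of the mevalonate route, ran from 202.6 CPM in clone F through a median of 537.4 to 1022.9 in clone M, a ratio of 5.05. IDI1, the isomerase of the isoprenoid building blocks, ran from 47.9 CPM in clone F through 106.2 to 181.9 in clone M. On TMM-scaled levels the low end was therefore clone F and the high end clone M for both genes. The Het library lay inside the clone range, at 635.6 CPM of HMGCS1 and 161.9 of IDI1.

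FDFT1 encodes squalene synthase, the step that commits the route to sterols, and ran from 61.3 CPM in clone F through 152.5 to 269.4 in clone M, with 187.2 in Het. SQLE, the squalene epoxidase that follows, ran from 74.1 CPM in clone F through 174.3 to 251.4 in clone M, with 210.5 in Het. At the top SQLE was flat, with clone L second at 245.8 CPM, whereas for FDFT1 clone M led clone I, at 219.9, by more. The size of that lead depends on the scaling, with factors of 0.892 in M and 1.065 in I.

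CYP51A1, the demethylase that acts on lanosterol, had the narrowest range, from 67.7 CPM in clone N through 103.5 to 177.0 in clone M, with 156.7 in Het. DHCR7, a reductase at the end of the route, ran from 53.2 CPM in clone F through 123.1 to 232.0 in clone O and 231.4 in clone C, with 202.5 in Het. For CYP51A1 the clones F, N and Q lay together at the bottom (68.1, 67.7 and 69.2 CPM).

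INSIG1 varied far more than the enzymes. It ran from 20.6 CPM in clone F (280 reads) through 148.6 to 301.3 in clone C (4440 reads), a ratio of 14.61. Clones E, K, J and N were also low, at 36.5, 43.0, 61.6 and 61.9 CPM, and clone O was next to C at 288.7. Clone M, at the top for 5 of the 6 enzymes on TMM-scaled levels, had only 165.4 CPM of INSIG1. Its scaling factor of 0.892 was among the lowest, so its narrower leads, such as that for SQLE, depend on the scaling.

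ACSL3 showed another pattern. It ran from 34.3 CPM in clone N (537 reads) through a median of 96.0 to 518.3 in clone M (8531 reads), and the next clone, O, had 145.3. Clone M thus stood alone, at 15.11 times the lowest clone, while the other 16 clones lay between 34.3 and 145.3 CPM. The Het library had 184.5 CPM, above every clone but M.

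**Figure D1:**
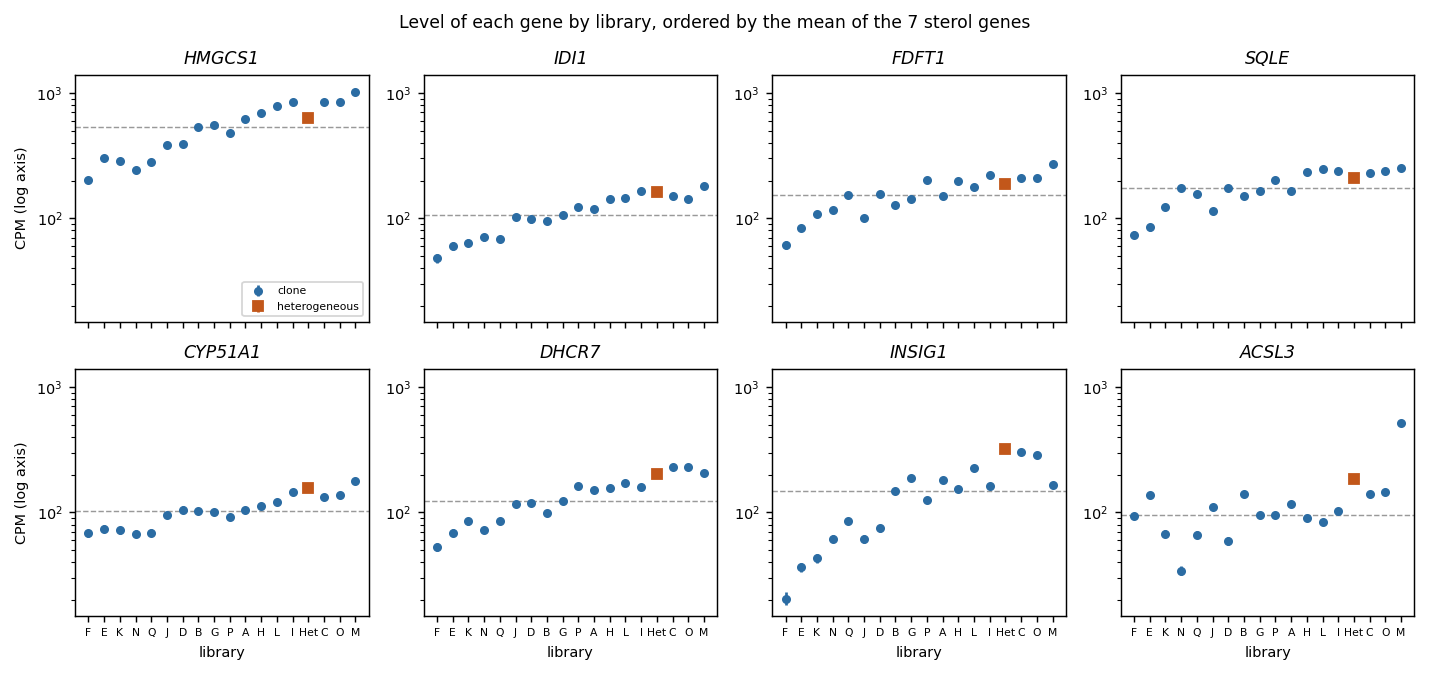
Level of each of the 8 genes in each library, in CPM on a log axis, with the libraries ordered on the x axis by the mean of the 7 sterol genes. Points are clones (blue) and the heterogeneous library (orange square), bars are exact Poisson 95% intervals (mostly smaller than the points) and the dashed line is the clone median. The sterol genes climb together from clone F to clones C, O and M, INSIG1 most steeply (20.6 to 301.3 CPM), while ACSL3 lies on both sides of its median of 96.0 along the whole order, from clone N at 34.3 to clone M at 518.3.

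The 95% exact Poisson intervals of these levels cover counting error only. In the order of the 18 libraries, neighbours had overlapping intervals in 7 of 17 steps for HMGCS1, 8 for INSIG1, 10 for DHCR7, 12 each for FDFT1, SQLE and ACSL3, 13 for IDI1 and 14 for CYP51A1. In all, 88 of the 136 steps between neighbours were within counting error, whereas the ends of each order were far apart. The Poisson interval of INSIG1 was 18.3 to 23.2 CPM in clone F and 292.5 to 310.3 in clone C.

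Measured as the SD of log2(CPM + 0.25) over the 17 clones, INSIG1 spread by 1.10, ACSL3 by 0.80, HMGCS1 by 0.73, DHCR7 by 0.63, IDI1 by 0.57, FDFT1 by 0.56, SQLE by 0.53 and CYP51A1 by 0.42 log2 units. The median SD of the 10351 genes with enough reads in the clones was 0.30. The share of these genes with a smaller SD was 96.5% for INSIG1, 91.6% for ACSL3 and 70.8% for CYP51A1, with the other members between 81.1% and 89.7%. Without clone M the SD of ACSL3 was 0.55.

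The sterol genes varied together from clone to clone. Over the 17 clones, the 21 pairs of sterol genes had Pearson r of log2 CPM from 0.75 to 0.96 (median 0.89) and Spearman rho from 0.74 to 0.96 (median 0.87). The closest pairs were HMGCS1 with IDI1, HMGCS1 with CYP51A1, and FDFT1 with SQLE, all with r = 0.96. The loosest pair was SQLE with CYP51A1 (r = 0.75), followed by CYP51A1 with INSIG1 (r = 0.78). Leaving out clones F and M, at the ends of the order, gave 0.69 to 0.96 (median 0.84). Points share 1 donor and 1 library each, and C and O are near neighbours, so these values describe the 17 libraries. The median r was 0.88 without C and 0.88 without O.

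ACSL3 followed the sterol genes loosely, no more closely than many other genes did. Its r was 0.67 with CYP51A1, 0.61 with HMGCS1, 0.49 with IDI1 and with DHCR7, 0.37 with FDFT1, 0.34 with INSIG1 and 0.19 with SQLE. Against the mean of the 7 sterol genes, each taken as its log2 difference from its clone median, ACSL3 had r = 0.46 (rho = 0.52), and r = 0.35 without clone M (rho = 0.42). Single genes had a 5th to 95th percentile of -0.61 to 0.63 with that mean, and the r of ACSL3 lay well inside it. Without clones F and M its r with the 7 sterol genes ran from -0.03 to 0.60 (median 0.44). Clone E shows how the genes came apart, with the sterol mean at -0.98 and ACSL3 at 0.52.

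On that sterol mean the clones ran from F (-1.39), E (-0.98), K (-0.78), N (-0.68), Q (-0.52) and J (-0.45) at the low end to H (0.30), L (0.43), I (0.46), C and O (0.61 each) and M (0.67) at the high end, with D, B, G, P and A between -0.22 and 0.12. Het lay at 0.55. In clone F all 7 sterol genes were low, from -0.66 (standard error 0.42) for CYP51A1 to -2.82 (standard error 1.09) for INSIG1 in edgeR's log2 difference from the other 16 clones. In clone N they were not low together, since HMGCS1 was at -1.20 and DHCR7 at -0.90 but SQLE at 0.02. In clone D INSIG1 was at -0.91 while SQLE and FDFT1 were at -0.03 and -0.02.

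**Figure D2:**
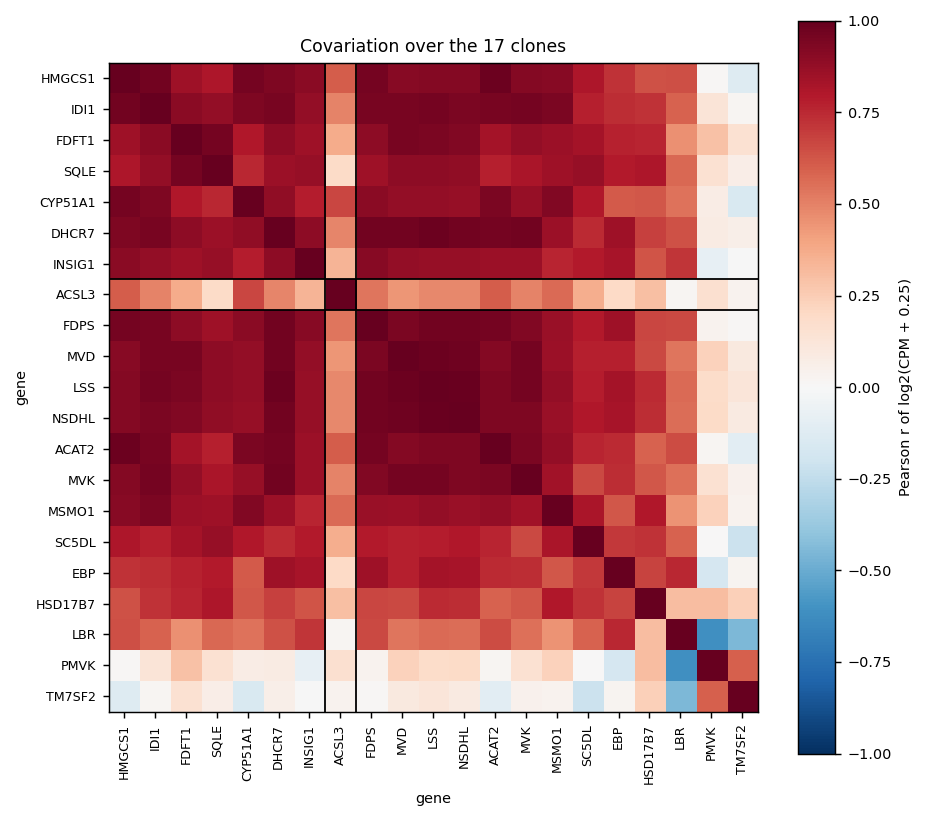
Pearson r of log2(CPM + 0.25) over the 17 clones for the 7 sterol genes, ACSL3 and 13 of the other cholesterol synthesis genes, on both axes, from blue (-1) to red (1). The sterol genes form a red block with most of the other synthesis genes, ACSL3 is paler (r of 0.19 to 0.67 with the sterol genes), and PMVK and TM7SF2 are palest (r of 0.07 and 0.00 with the mean of the sterol genes).

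The rest of the route was read from a list of 15 other cholesterol synthesis genes, drawn up with earlier results of these data known. All 15 had enough reads. Their median r with the mean of the sterol genes was 0.94, against -0.014 over the 10343 genes that are not members, and 9 of the 15 had an r over 0.9, against 0.155% of all these genes. The mevalonate enzymes ACAT2 (r = 0.95), MVK (r = 0.94), MVD (r = 0.97) and FDPS (r = 0.97) were in that group, and so, among others, were the later enzymes LSS (r = 0.97), NSDHL (r = 0.96) and MSMO1 (r = 0.91). SC5DL, the sterol desaturase, had r = 0.84, EBP, a sterol isomerase, r = 0.81, HSD17B7, a ketosteroid reductase, r = 0.72, and LBR, a sterol reductase that also holds the nuclear lamina, r = 0.65. The exceptions were PMVK, the phosphomevalonate kinase (r = 0.07), and TM7SF2, the other reductase for the step that LBR can do (r = 0.00).

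FDPS, the closest of all genes to the sterol mean, ran from 33.3 through 72.29 to 109.53 CPM (SD 0.54). PMVK, by contrast, ran only from 6.55 to 15.98 CPM (SD 0.34), and TM7SF2 from 2.77 to 22.78 (SD 0.74). TM7SF2 thus varied among clones by more than FDPS did, but in another order.

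Averaged over the list, the 15 other synthesis genes followed the 7 sterol genes at r = 0.99 (rho = 0.98, n = 17 clones), and at r = 0.98 without clones F and M. Their mean log2 difference from the clone median was -0.84 in clone F and -0.65 in clone E, against 0.50 in clone M, 0.51 in clone O and 0.56 in clone C. In the edgeR fits of each clone against the other 16, 0 of the 15 were called in any clone. In clone F all 15 were below the average of the other clones, as all 15 also were in clones E and K. In clone B 14 were below that average, and in clones D, J and Q 13 each. The shared sign is therefore not particular to clone F. In clone F, MVK, MVD, LSS and NSDHL were at -1.45, -1.56, -1.52 and -1.01 log2 units. These 4 of the 15 had an unadjusted p under 0.05 by edgeR, where 3.53% of all 11761 genes did. None passed after Benjamini-Hochberg adjustment (adjusted p = 0.907 for each by edgeR). In clone M, 14 of 15 were above the average of the other clones and 1 was below, as was 1 in clone I. MSMO1, at 0.82 in clone M, was the 1 gene of the 15 with an unadjusted p under 0.05 by edgeR, against 3.83% of all genes.

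The genes with the pattern most like that of the sterol genes were ranked over all 10343 others. The 10 nearest, with r from 0.97 to 0.94, included FDPS, MVD, LSS, NSDHL, ACAT2, PCYT2, MVK and FADS2, and 9 of these 10 stood in the gene lists. Of the 16 genes with r over 0.9, 12 were in a list. The 4 outside, named here after their values were seen, were PCYT2 (r = 0.95), which makes the ethanolamine donor for phospholipids, LPIN1 (r = 0.92), a phosphatidic acid phosphatase, AACS (r = 0.92), which activates acetoacetate for lipid synthesis, and PGP (r = 0.92), a phosphoglycolate phosphatase.

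Fatty acid synthesis genes went with the sterol genes as well. Of 11 listed, 10 had enough reads and their median r was 0.76, with 8 over 0.5, where 13.4% of all genes were over 0.5. FADS2, a desaturase of polyunsaturated fatty acids, had r = 0.94 and ran from 5.6 through 43.71 to 187.17 CPM, the widest spread of the list (SD 1.48). FASN, the fatty acid synthase, had r = 0.93 and ran from 129.08 through 326.12 to 775.84 CPM, and ACLY, which supplies cytosolic acetyl-CoA, had r = 0.93. ME1, the malic enzyme, and GPAM, which starts glycerolipid synthesis, did not share the pattern (r = -0.25 and -0.30). SCD, the stearoyl-CoA desaturase, is listed at 0 reads in every library, and nothing can be said of its level.

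Among the SREBP machinery, the factor genes and INSIG2 lay at opposite ends. SREBF2, whose product chiefly drives cholesterol genes, had r = 0.84 with the sterol mean, and SREBF1, whose product chiefly drives fatty acid genes, had r = 0.79. SCAP, the escort, had r = 0.01, and INSIG2, the relative of INSIG1, had r = -0.66. Over the 10 genes of this list the median r was 0.15.

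Of the uptake and transport genes, LRP8 had r = 0.73 with the sterol mean, and the lysosomal cholesterol carriers NPC1 and NPC2 had r = -0.05 and -0.60. In this list 2 of the 8 measured genes had an r over 0.5, where 13.4% of all genes did. The median r over the 8 measured genes was 0.20. It was 0.07 for efflux, storage and LXR genes, 0.20 for other acyl-CoA synthetases, -0.12 for lipid droplet genes and -0.40 for genes that use isoprenoids outside sterol synthesis. PGGT1B, the subunit of the enzyme that attaches geranylgeranyl groups to proteins, had r = -0.87 and was the last of the 10343 genes in the ranking.

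**Figure D3:**
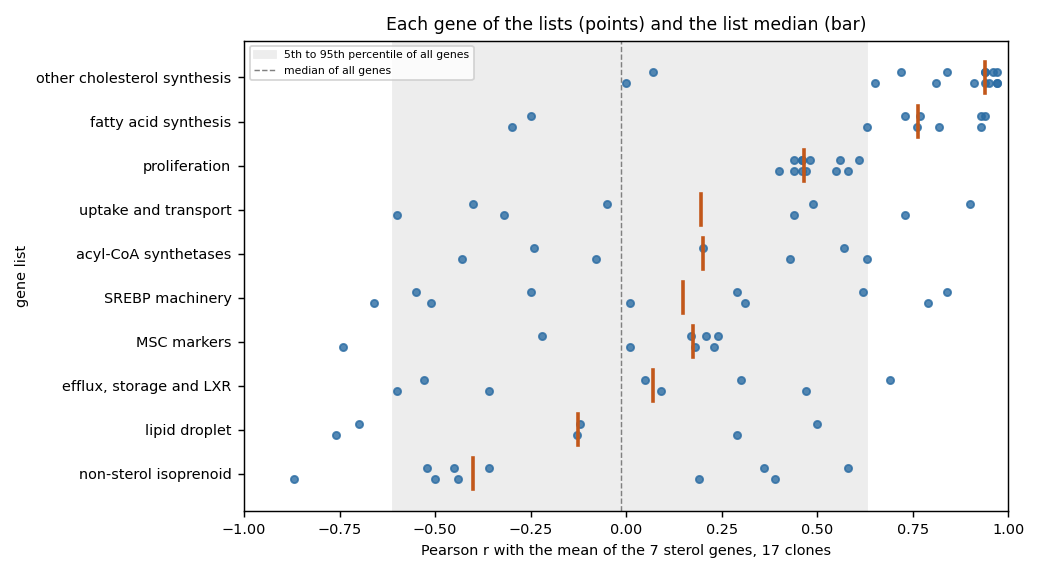
Pearson r with the mean of the 7 sterol genes over the 17 clones (x axis) for each measured gene of 10 gene lists (points, 1 row per list), with the list median (orange bar), the median of all genes (dashed line, -0.014) and their 5th to 95th percentile (grey, -0.61 to 0.63). The other cholesterol synthesis genes (median 0.94) and the fatty acid synthesis genes (median 0.76) lie mostly to the right of the grey band.

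ACSL3 had its own neighbours. The 5 genes most like it over the 17 clones were CNN3, an actin-binding calponin (r = 0.93), P4HB, a chaperone and subunit of collagen prolyl hydroxylase (r = 0.87), CSDA, a cold shock protein (r = 0.86), BMP1, the procollagen C-proteinase (r = 0.85), and AKT1S1, a regulator of mTOR (r = 0.85). Without clone M, IGFBP5 (r = 0.91) and SMTN (r = 0.91) came before BMP1 (r = 0.90), HDLBP (r = 0.89) and P4HB (r = 0.89), and CNN3 (r = 0.85) was at place 22. BMP1 and P4HB were thus among the 5 nearest with and without clone M. In clone M, CNN3 had 91.1 CPM against 41.3 to 68.4 in the other clones, and P4HB had 4000.4 against 1869.8 to 3696.9.

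In edgeR's fit of clone M against the other 16 clones, ACSL3 differed by 2.38 log2 units (standard error 0.38) and was 1 of the 4 genes called higher, 0.034% of 11761. This comparison may have chosen the gene, so the value is given as a description only. In the sterol genes clone M differed from the others by 0.28 (INSIG1, standard error 0.95) to 0.97 log2 units (HMGCS1, standard error 0.58). ACSL3 in clone N was at -1.87 (standard error 0.95). The relatives of ACSL3 did not follow it closely, since ACSL1 and ACSL4 had r = 0.43 and 0.28 with ACSL3 over the clones, and ACSL5 had 0.06.

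Genes of the dividing cell followed the sterol genes loosely over all 17 clones, and more closely without clone M. Over the 17 clones the mean of 12 proliferation genes had r = 0.49 (rho = 0.48) with the sterol mean, and 4 of the 12 had an r over 0.5, where single genes had a 5th to 95th percentile of -0.61 to 0.63. Clone M lowered the r of the proliferation mean, which was 0.74 without that clone (rho = 0.77). It was 0.78 without clones F and M, a pair left out after their values were seen. MKI67, a marker of cycling cells, was at 593.13, 559.55, 537.99 and 512.03 CPM in clones O, L, C and G, and at 21.75 in clone M. Clone M therefore joined a sterol mean among the highest to the lowest MKI67 of the clones. The sterol mean of M was 0.67, against 0.61 in C and O, a lead small enough to depend on the scaling. Clone G had high MKI67 with a sterol mean of only 0.03. ACSL3 had r = -0.16 with the same genes. The part of cell division in the sterol pattern was not tested. The sterol mean had r = 0.17 with log2 reads on genes, 0.32 with the scaling factor and 0.65 with the leading principal component of all genes, which held 29.6% of the variance. In RNA from whole cultures, a change in every cell and a change in the share of some cells cannot be told apart.

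**Figure D4:**
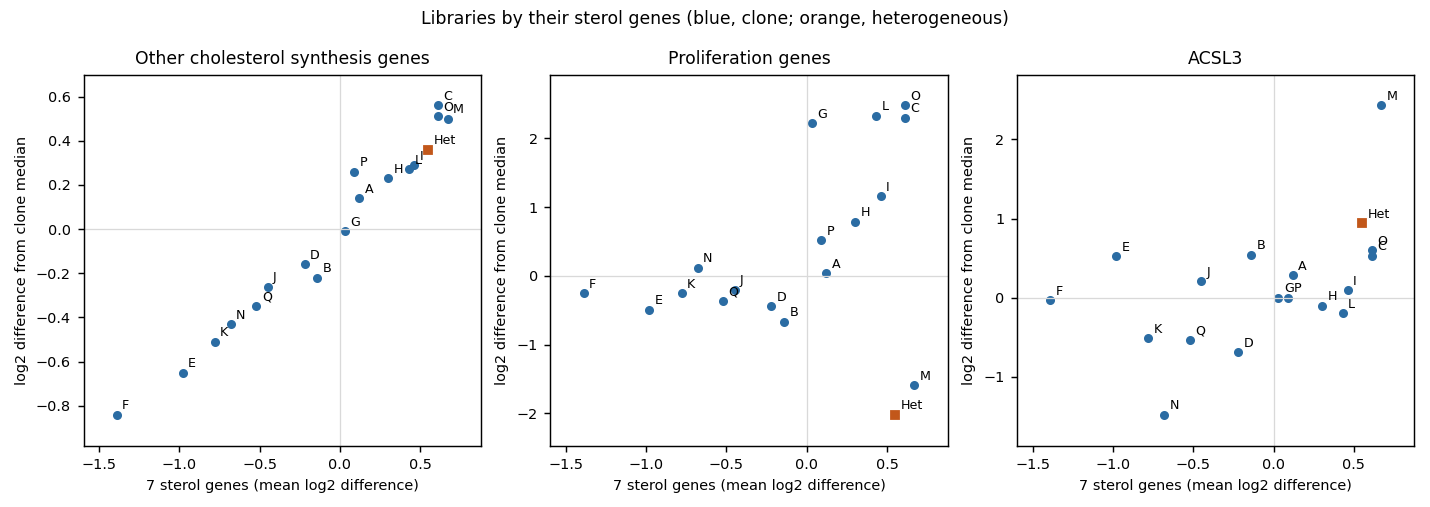
Mean log2 difference of the 7 sterol genes from their clone medians (x axis) against the same mean for 15 other cholesterol synthesis genes, for 12 proliferation genes, and against ACSL3 (y axes), 1 labelled point per library (blue, clone; orange, heterogeneous). The synthesis genes fall on a line (r = 0.99 over the clones), clone M and Het have high sterol genes with low proliferation genes, and clone M stands apart for ACSL3 at 2.43.

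The unsorted population was then set against the clones, the only contrast between groups that the labels give. Since Het has no replicate, edgeR's quasi-likelihood test borrows its spread from the clones. Of the 11878 genes tested, 144 were higher (1.21%) and 1 lower (0.00842%) at an adjusted p under 0.05, and 912 (7.68%) had an unadjusted p under 0.05. The 8 members are given here by their values alone. All 8 lay above the average of the clones, as did 5518 of all 11878 genes. The log2 difference was 1.22 for INSIG1 (standard error 0.84), 0.59 for DHCR7 (0.55), 0.58 for CYP51A1 (0.38) and 0.58 for ACSL3 (0.80). It was 0.55 for IDI1 (0.50), 0.24 for FDFT1 (0.50), 0.24 for SQLE (0.48) and 0.22 for HMGCS1 (0.66). Some clones lay above Het for every member but INSIG1, from 1 clone for CYP51A1 and ACSL3 to 6 for HMGCS1, FDFT1 and SQLE. The median over all genes was -0.04. INSIG1 in Het, at 318.0 CPM, was above every clone, as were 9.56% of all genes, but on plain library totals it was at 300.9 against 314.1 in clone C, below C and O, where 6.62% of all genes were above every clone.

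Of the 15 other cholesterol synthesis genes, 12 lay above the average of the clones (median 0.33 log2 units), against 5518 of all 11878 genes tested. By edgeR 0 were called, and 0 had an unadjusted p under 0.05. DESeq2 and limma also called 0. The largest differences were those of TM7SF2 (0.91, standard error 0.74) and MVK (0.76, standard error 0.46). MVK was at 65.86 CPM in Het against at most 58.08 in a clone. Neither lay as far as 2 standard errors from 0.

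**Figure D5:**
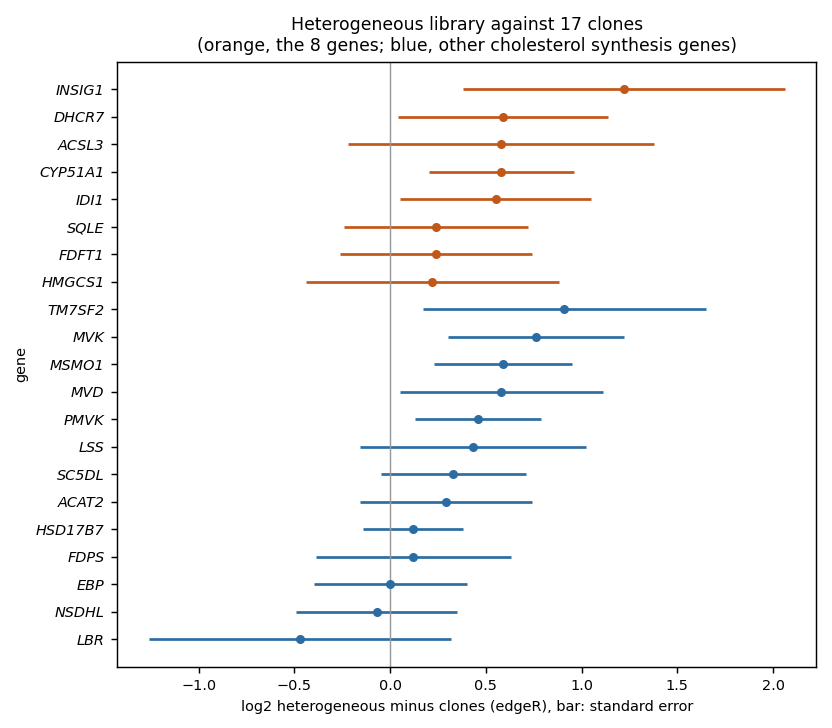
Log2 difference of the heterogeneous library from the 17 clones by edgeR (x axis, bars are standard errors) for the 8 members (orange) and 13 of the other cholesterol synthesis genes (blue). Members run from 0.22 (HMGCS1) to 1.22 (INSIG1) and the other genes from -0.47 (LBR) to 0.91 (TM7SF2), none of the blue genes called at an adjusted p under 0.05.

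Over all 8 lists of lipid genes, 77 genes were tested, 0 were called by edgeR, DESeq2 or limma, and 9, 6 and 11 had an unadjusted p under 0.05 in turn, against 7.68%, 9.24% and 8.59% of all genes by the same tools. Those found by edgeR all lay above the clones in Het, and the direction of all other genes at that p was not counted. FADS1, a desaturase, had the smallest p, with 197.72 CPM against 41.9 to 144.89 in the clones (1.38 log2 units, standard error 0.43, adjusted p = 0.266 by edgeR). SREBF1 was at 208.42 CPM against 48.4 to 182.8 (1.15, standard error 0.50, adjusted p = 0.596 by edgeR), and ABCA1, a cholesterol exporter under LXR control, at 65.01 against 2.43 to 46.54 (2.07, standard error 0.84, adjusted p = 0.559 by edgeR). FASN (0.50), SREBF2 (0.58), ME1 (0.88) and FADS2 (1.51) had adjusted p of 0.877, 0.682, 0.452 and 0.743 by the same test.

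Further genes of these lists showed the following log2 differences from the clones. They were 1.78 for ACSS2 (standard error 0.79), which activates acetate, among fatty acid genes. Among uptake genes they were 0.90 for MYLIP (standard error 0.43) and -0.86 for LRP8 (0.87). CH25H was at 1.68 (standard error 1.43), on 1.18 CPM in Het and at most 1.86 in a clone. ACSF2 was at 0.89 (0.49). ACSL6 was at 0.78 (0.85), on 0.66 CPM in Het and at most 0.88 in a clone. PDSS1 was at -0.75 (standard error 0.69) and FNTB at -0.59 (0.37). Among lipid droplet genes HILPDA was at -0.82 (standard error 0.50). PLIN4 was at 2.36 (0.98), on 2.3 CPM in Het and at most 1.12 in a clone. Het thus showed no list of lipid genes with a called change in either direction.

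Other cell types bear on this contrast. All 10 macrophage markers were called higher in Het, among them CD163 (43.8 CPM against at most 0.87 in a clone), and their summed level was 183.5 CPM against 3.2 to 8.7 in the clones. None of these 10 was listed at 0 in Het, whereas 0 to 5 of them were in each clone. All 12 proliferation genes lay below the average of the clones in Het. By edgeR 0 were called, and 2 had an unadjusted p under 0.05 (RRM2 at -5.07 and TOP2A at -3.60). PCNA and CDK1 in Het, at 17.93 and 2.1 CPM, were above the lowest clone (16.4 and 2.0 CPM). CCNA2, a cyclin, was at -3.93 and MKI67 at 18.65 CPM, below every clone. Summed adipocyte markers were at 50.6 CPM against 25.3 to 126.0 in the clones, with CFD listed at 0 in every library and ADIPOQ at -2.88. Endothelial markers summed to 26.7 against 17.5 to 76.2, with CDH5 listed at 0 in every library, PECAM1 at -1.79 and VWF at 1.94 (adjusted p = 0.0569 by edgeR), osteoblast markers to 519.1 against 365.4 to 1698.5, with SP7 at -2.05 and BGLAP at 0.07 CPM against 0 to 1.09, and erythroid markers to at most 0.7 in any library. Among MSC markers the largest differences were COL1A1 at 0.85 and NT5E at -0.77, and neither was called. In the clones the only listed marker called in the 17 fits was FABP4, an adipocyte fatty acid carrier, in clone N (75.22 CPM against a clone median of 6.06, 3.61 log2 units above the others, standard error 0.79, adjusted p = 0.0389 by edgeR). The part of macrophages and of the lower proliferation genes in the Het levels of the sterol genes and ACSL3 was not tested.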

How the data were processed

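Poly-adenylated RNA of 17 clones and 1 heterogeneous population was sequenced by the authors with 50-base single-end reads, aligned to bosTau7 with STAR (2.3.0e per the labels) and assigned to RefSeq genes with HTSeq. The deposited values are raw counts per gene, without normalization, and 5 tally lines per file that name no gene were left out (18.78% to 26.81% of reads lay outside genes). Levels are CPM on TMM-scaled library sizes, and log2 values add a pseudocount of 0.25. Genes were tested with edgeR 4.0.16 (TMM, filterByExpr, quasi-likelihood, Benjamini-Hochberg over all genes) in R 4.3.3, with DESeq2 1.42.0, limma 3.58.1, other scalings, no filter, a pseudocount of 1, Spearman rho and clones left out as alternatives. Standard errors are the log2 difference over the root of F. The tests were checked on simulated counts. The members and the 15 gene lists were chosen with earlier results of these data known, and 140 of the 142 listed genes have a row. Some listed genes enter the counts and medians but are not reported here by name. Most named genes are the members, fixed pathway genes, called genes or the 2 largest differences of each list, and the genes most like the members. Some other listed genes, such as NPC1, NPC2, SCAP, INSIG2, GPAM and PGGT1B, are named outside these rules. A count of 0 allows up to 3 reads. Each labelled clone of the 1 donor was sequenced once, so p-values set a difference against the spread between these clone libraries. Summaries used pandas 2.3.3 with numpy 2.4.6 under Python 3.11.15, intervals scipy 1.17.1, and plots matplotlib 3.10.9. No coordinates, gene lengths or sequences are given, as none of the files' build were used.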

Additional observations from a re-analysis of the deposited data

How the results depend on the processing

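With each clone left out in turn the median r over the 21 pairs of sterol genes lay between 0.85 and 0.90 and the median r of the 15 other synthesis genes between 0.92 and 0.94. The r of proliferation genes with the sterol mean ran from 0.42 to 0.74 (0.74 without clone M) and was 0.78 without clones F and M, a setting chosen after seeing the data. The SD of ACSL3 ran from 0.55 (without clone M) to 0.83. In the Het contrast DESeq2 called 78 genes higher and 11 lower, library totals gave 2 lower, and leaving out single clones gave 1 to 2 lower. Over the 17 fits of 1 clone against the rest edgeR called 90 genes, DESeq2 455 and limma 524, and of the genes in the 8 lipid lists, which do not hold ACSL3, limma alone called 1, TM7SF2 in clone P. The causes of these shifts were not tested. MRC1 and PTPRC in Het were not called by DESeq2. VWF in Het passed with limma, with no filter and without clone D, N or P. No paired analysis was possible because the Het group holds 1 library. With 1 library per population, the standard errors of the 8 members in Het (0.38 to 0.84) limit what could be seen there, and 0 calls among lipid genes do not show that they did not differ.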
